A study of Homo sapiens with 6 samples.

Results

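Long intergenic noncoding RNAs were examined on Affymetrix HG-U133 Plus 2.0 arrays of SW480, an established cell line from a human colorectal adenocarcinoma. The genes described are those whose symbol in the array annotation starts with LINC0, whose probe set carries 1 symbol only, and whose mean log2 intensity over all 6 arrays was at least 3.9. These were 161 of the 840 LINC0 genes on the array and of the 19775 genes tested, each represented by its probe set with the highest mean. Members were thus chosen by their measured level, which was not tested. It averages all arrays, so it does not use the difference between groups. The minimum lies at about the median probe set of an array (3.89 to 3.93 on the log2 scale). LINC02992 (3.91), LINC01920 (3.92) and LINC00165 (3.93) lay just inside it, and LINC01949 (3.89), LINC01988 (3.89) and LINC00028 (3.88) just outside.

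The groups were 3 arrays labelled as SW480 cells with CPEB3 overexpressed after transfection (CPEB3 binds mRNAs and regulates their polyadenylation and translation) and 3 arrays labelled as the negative control (NC). The labels call the replicates biological and give no culture, clone or vector, so p-values refer to the spread among these arrays, which may be technical. The mRNA of CPEB3 itself went against the labels at all but its brightest probe set. At its most variable probe set the log2 level was 2.31 under the CPEB3 label and 3.75 under NC, a difference of -1.44 (limma, Benjamini-Hochberg adjusted p over all probe sets = 6.72e-05). Further CPEB3 probe sets fell by 0.35 and 0.25 (adjusted p = 0.00686 and 0.0387 in the same limma fit). All that fell had a mean under 3.9. At the brightest the log2 level was 5.37 against 5.32 and did not pass (adjusted p = 0.671 in that limma fit). Every direction below therefore rests on the labels alone. The colon epithelial markers EPCAM (11.13 and 11.09), KRT18 (11.62 and 11.36) and CDX2 (4.85 and 4.83) were measured in both groups. A mean of at least 3.9 was reached by 10 of 11 such markers, 2 of 6 leukocyte markers and 3 of 8 fibroblast and endothelial markers. Of those 10, KRT18 and KRT20 rose (limma, Benjamini-Hochberg adjusted p = 0.0103 and 4.18e-05) and 8 did not pass 0.05. KRT20 rose 1.83-fold, from 4.26 to 5.13. Above that minimum lay the leukocyte markers CD3E (4.92 and 4.74) and ITGAM (4.64 and 4.32). From the fibroblast and endothelial list COL1A1 (6.48 and 6.32), DCN (4.24 and 3.95) and PECAM1 (4.86 and 4.79) lay above it. ITGAM and DCN rose as well (adjusted p = 0.00919 and 0.0102 in the same limma fit), and CD3E, COL1A1 and PECAM1 did not pass. The leukocyte marker PTPRC was at 1.62 and 1.48. Summed marker levels were slightly higher in the arrays labelled CPEB3 for all 3 lists: 13.11 to 13.15 against 12.96 to 12.99 for 11 colon epithelial genes, 6.42 to 6.59 against 6.21 to 6.35 for 6 leukocyte genes, and 7.34 to 7.43 against 7.23 to 7.29 for 8 fibroblast and endothelial genes. Their part in the results was not tested, and in bulk RNA fewer cells of a type and less RNA per cell cannot be told apart.

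Long intergenic noncoding RNAs are transcribed by RNA polymerase II from genes that lie between protein-coding genes, and most are capped, spliced and polyadenylated like mRNAs. Many are made at low levels, are retained in the nucleus and are degraded there by the RNA exosome. Some act on neighbouring genes from their site of transcription, others bind proteins or microRNAs elsewhere in the cell, and for most with a LINC number no function is established.

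The median level of the 161 genes was 4.59 on the log2 scale, against 6.30 for all genes at or above the same minimum. LINC00623 had the highest mean (8.07), 47 genes reached 5 or more, and 75 lay under 4.5. Presence calls were not used, so a dim probe set may hold little signal of its own and understate a difference. Replicates lay close together, with a median SD of 0.10 within either group.

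Of the 161 genes, 12 rose and 14 fell in the arrays labelled CPEB3 at a Benjamini-Hochberg adjusted p under 0.05 in limma's test over all 19775 genes, and 135 did not pass. Those 26 genes are 16.1% of the set. Over all genes 23.3% passed (10.9% higher and 12.5% lower), and over all genes with a mean of at least 3.9 the share was 32.2% (14.5% higher and 17.7% lower). In all 26 the groups did not overlap. Groups did not overlap in 51 of the 161 genes (31.7%), compared with 51.2% of all genes at that level and 39.1% of all genes. The changes were mostly small, with 18 of the 26 under 1.5-fold and 2 past 2-fold, LINC00326 downward and LINC01963 upward. At that level 1.42% of all genes passed with at least a 2-fold change.

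**Figure D1:**
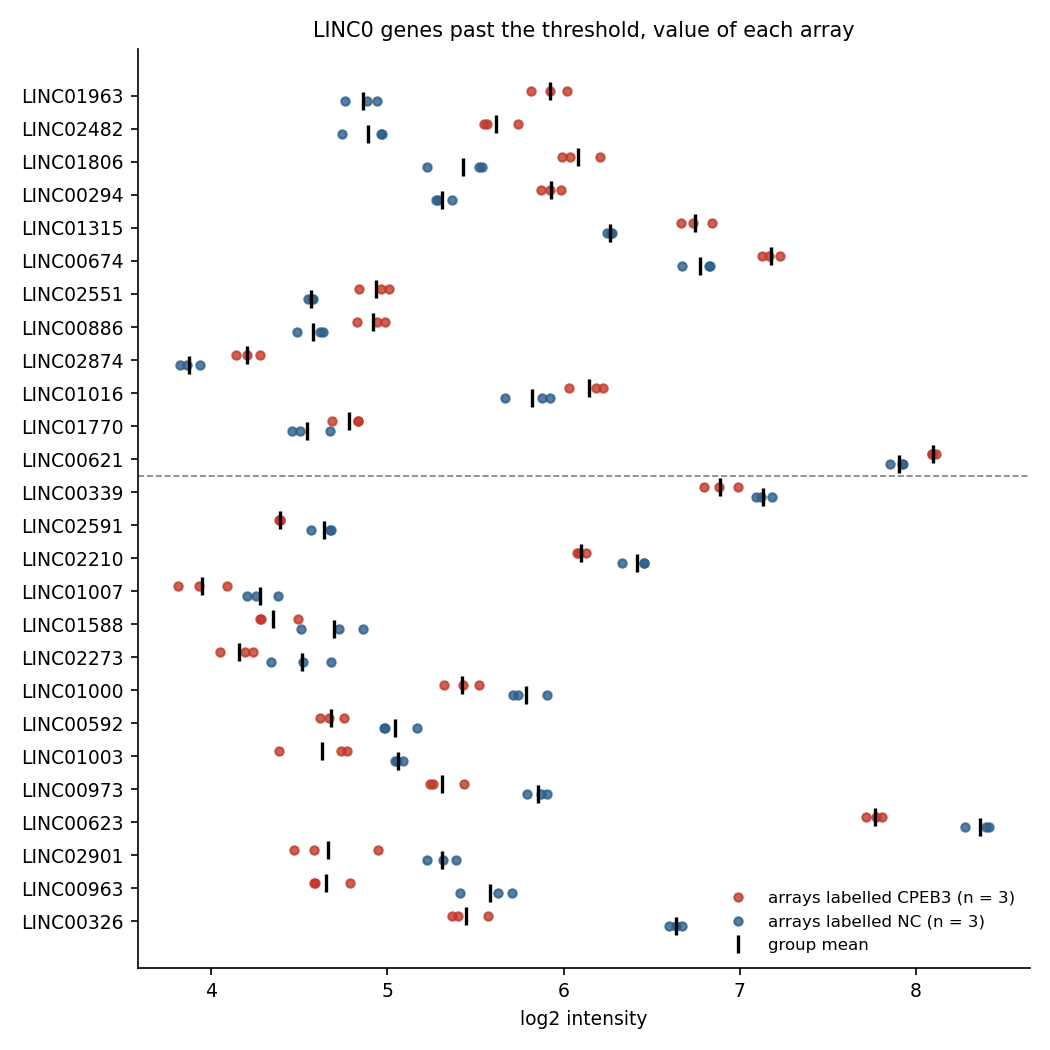
Log2 intensity (x axis) of the 26 long intergenic noncoding RNAs past the threshold (y axis) in each of the 3 arrays labelled CPEB3 and the 3 labelled NC, with black ticks for group means. The 12 genes above the dashed line were higher and the 14 below it lower in the arrays labelled CPEB3, and in each gene the red and blue points do not overlap.

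LINC00326 fell the most. Its log2 intensity was 5.37, 5.40 and 5.57 under the CPEB3 label and 6.67, 6.64 and 6.60 under the NC label, an order kept in all pairs of values below. Every array labelled NC was thus brighter than every one labelled CPEB3, and the difference was -1.19 (SE 0.07), or 2.28-fold (limma, Benjamini-Hochberg adjusted p = 5.34e-06). It was measured by a single probe set.

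LINC00963, a transcript also known as MetaLnc9 and studied in several carcinomas, was at 4.58, 4.59 and 4.79 against 5.41, 5.71 and 5.63. The difference was -0.93 (SE 0.09; limma, Benjamini-Hochberg adjusted p = 1.27e-04), a 1.91-fold fall. Its leading probe set can match several transcripts, but the other probe set of the gene, which carries no such mark, fell by 0.82 from 4.73 to 3.91 and passed as well. The annotated promoter of LINC00963, taken from RefSeq (GRCh38.p14, chr9:129488410-129488709, plus strand), is shown because its gene fell at both probe sets. The capitals mark its match to the AP-1 motif TGANTCA.
LINC00963: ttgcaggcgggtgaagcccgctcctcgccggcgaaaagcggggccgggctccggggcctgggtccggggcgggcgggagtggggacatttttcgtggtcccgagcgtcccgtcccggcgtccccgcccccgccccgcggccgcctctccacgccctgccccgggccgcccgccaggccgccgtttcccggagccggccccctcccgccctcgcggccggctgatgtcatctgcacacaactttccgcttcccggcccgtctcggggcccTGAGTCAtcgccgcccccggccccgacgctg

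LINC02901 was at 4.58, 4.47 and 4.94 against 5.32, 5.22 and 5.39. The lower group was also the more scattered (SD 0.25 against 0.08), with replicate 3 nearest to the other group. The fall was 1.56-fold (log2 difference -0.65, SE 0.11; limma, Benjamini-Hochberg adjusted p = 0.00344). One of its annotated promoters (GRCh38.p14, chr6:158869779-158870078, plus strand) is printed beside that of LINC00963 because it holds the same AP-1 letters, again in capitals.
LINC02901: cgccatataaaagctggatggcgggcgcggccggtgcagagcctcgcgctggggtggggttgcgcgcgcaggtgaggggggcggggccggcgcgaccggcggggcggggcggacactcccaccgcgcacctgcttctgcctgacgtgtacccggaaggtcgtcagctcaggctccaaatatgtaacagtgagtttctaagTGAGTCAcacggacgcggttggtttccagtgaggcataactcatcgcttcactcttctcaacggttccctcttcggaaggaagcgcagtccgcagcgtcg

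LINC00623, the brightest gene of the set, was at 7.72, 7.77 and 7.81 against 8.28, 8.40 and 8.42. All arrays labelled CPEB3 lay below all arrays labelled NC, with an SD of 0.05 and 0.07. The difference was -0.60 (SE 0.06; limma, Benjamini-Hochberg adjusted p = 1.95e-04), or 1.51-fold. Its only probe set can match several transcripts, so other transcripts with like sequence may add to it. Of the 21 genes past the threshold with a promoter to search, it is the one holding letters of an interferon-stimulated response element, GAAA repeated after a gap of 2 bases (GRCh38.p14, chr1:120912967-120913266, plus strand), capitals marking the match.
LINC00623: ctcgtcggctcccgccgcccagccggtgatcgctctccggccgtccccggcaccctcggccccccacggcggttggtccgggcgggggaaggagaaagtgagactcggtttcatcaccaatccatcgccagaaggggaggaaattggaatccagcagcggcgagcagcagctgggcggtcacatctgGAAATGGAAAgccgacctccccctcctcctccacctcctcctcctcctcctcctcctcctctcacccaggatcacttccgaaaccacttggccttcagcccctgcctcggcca

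LINC00973, reported in drug-treated colon cancer cells, was at 5.26, 5.24 and 5.44 against 5.91, 5.79 and 5.87. The groups were separated by more than the spread within either, with a difference of -0.55 (SE 0.07) and a limma Benjamini-Hochberg adjusted p of 6.43e-04. The other 9 falls were smaller, from LINC01003 (-0.43) to LINC00339 (-0.24). LINC00592 was at 4.67, 4.75 and 4.62 against 4.98, 4.99 and 5.17, a fall of 1.29-fold (limma, Benjamini-Hochberg adjusted p = 0.00601). LINC01000 (-0.36), LINC02273 (-0.35), LINC01588 (-0.35), LINC01007 (-0.33), LINC02210 (-0.32) and LINC02591 (-0.25) fell by less than 1.5-fold each. LINC00339 was among the brightest genes of the set, at 6.99, 6.80 and 6.88 against 7.18, 7.09 and 7.12.

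Among the rises LINC01963 stood first. It was at 5.82, 5.93 and 6.02 against 4.89, 4.94 and 4.76. The difference of 1.06 (SE 0.07; limma, Benjamini-Hochberg adjusted p = 1.73e-05), or 2.08-fold, was many times the spread within either group (SD 0.10 and 0.09). It was measured by 1 probe set.

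LINC02482 rose 1.66-fold. Its values were 5.74, 5.55 and 5.57 against 4.74, 4.97 and 4.97, a difference of 0.73 (SE 0.08; limma, Benjamini-Hochberg adjusted p = 3.29e-04). Its other probe set rose by 0.61, from 3.52 to 4.13, and passed too. LINC02482 starts within 2000 bases of the start of the coding gene MRFAP1L2 on the opposite strand, whose own difference was 0.07 (limma, Benjamini-Hochberg adjusted p = 0.44). The promoter of LINC02482 (GRCh38.p14, chr4:6673832-6674131, minus strand) is shown as this start region with unequal differences on its flanks, the capital letter marking the annotated first base of the transcript.
LINC02482: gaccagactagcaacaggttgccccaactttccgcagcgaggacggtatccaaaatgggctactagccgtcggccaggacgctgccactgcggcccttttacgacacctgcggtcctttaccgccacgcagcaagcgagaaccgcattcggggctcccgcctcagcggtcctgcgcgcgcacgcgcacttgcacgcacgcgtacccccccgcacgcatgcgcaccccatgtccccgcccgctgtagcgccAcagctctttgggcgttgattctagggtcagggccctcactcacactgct

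LINC01806 was at 5.99, 6.04 and 6.21 against 5.52, 5.23 and 5.54, so that its lowest array labelled CPEB3 still exceeded the highest labelled NC. The difference was 0.65 (SE 0.10; limma, Benjamini-Hochberg adjusted p = 0.00131), and the other probe set of the gene showed 0.75. It was thus 1 of 2 rising genes, with LINC02482, in which both of the gene's probe sets passed. Its promoter (GRCh38.p14, chr2:161244489-161244788, plus strand) is given for comparison, the capital letter marking the annotated first base.
LINC01806: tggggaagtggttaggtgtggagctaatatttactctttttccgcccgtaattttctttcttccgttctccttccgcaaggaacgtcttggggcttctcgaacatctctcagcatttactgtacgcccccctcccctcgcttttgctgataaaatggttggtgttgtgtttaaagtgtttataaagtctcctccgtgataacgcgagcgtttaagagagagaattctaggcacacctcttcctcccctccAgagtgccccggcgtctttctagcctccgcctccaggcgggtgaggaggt

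LINC00294 was at 5.93, 5.87 and 5.99 against 5.28, 5.29 and 5.37, a tight pair of groups 0.62 apart (SE 0.06; limma, Benjamini-Hochberg adjusted p = 1.37e-04). LINC01315, studied in colorectal tumours, was at 6.74, 6.67 and 6.84 against 6.25, 6.28 and 6.27, a rise of 1.40-fold. LINC00674, among the brightest genes of the set, rose from 6.78 ± 0.09 to 7.18 ± 0.05 (SD, n = 3 each; limma, Benjamini-Hochberg adjusted p = 0.00258). In each of these 3 genes the groups did not overlap. The other probe sets of LINC00674 differed by 0.16, -0.07 and 0.22, and none of them passed. LINC02551 (0.37), LINC00886 (0.34), LINC02874 (0.33), LINC01016 (0.32) and LINC01770 (0.24) rose by less than 1.3-fold each. LINC00621 rose by 0.20, its values of 8.12, 8.09 and 8.09 against 7.92, 7.93 and 7.86 being the second brightest of the set, at a probe set that can match several transcripts.

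For 8 of the 26 genes the call rested on the full set of arrays. LINC00339 and LINC00621 each kept their call under 1 of the 6 omissions of a single array, with limma Benjamini-Hochberg adjusted p up to 0.108 and 0.102. LINC00339 kept it without CPEB3 replicate 1 and LINC00621 without NC replicate 1. LINC01770 lost it without CPEB3 replicate 2 or 3 or NC replicate 2 or 3, and LINC01588 without CPEB3 replicate 1 or 2 or NC replicate 2 or 3. LINC01007 lost it without CPEB3 replicate 1 or 2 or NC replicate 1. LINC01016 lost it without CPEB3 replicate 1 or 3 or NC replicate 2, LINC02273 without CPEB3 replicate 1 or NC replicate 2 or 3, and LINC02591 without NC replicate 2. The other 18 genes passed under all 6 omissions. Leaving out NC replicate 1 raised the number of rises from 12 to 20.

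Several members have more than 1 probe set, which gives further readings of the same RNA in the same arrays. The 26 genes had 19 other probe sets, of which 13 had the sign of the leading one, 4 passed with that sign and 0 passed with the opposite sign (limma, Benjamini-Hochberg adjusted p under 0.05 over 41091 probe sets, of which 17.6% passed). The 4 belonged to LINC00963, LINC01588, LINC01806 and LINC02482. LINC02210 was the least even, with -0.32 at its leading probe set and 0.05, -0.04 and 0.11 at the others. LINC02874 rose at its leading probe set and showed 0.00 at its other, dim one (2.41 in both groups). Probe sets whose identifier marks a possible match to several transcripts (_s_at or _x_at) stood for 25 of the 161 genes and 9 of the 26. They passed in 36% of genes, and the rest in 12.5% (17 of 136). Among protein-coding genes at the same minimum level the shares were 33.5% and 33%.

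**Figure D2:**
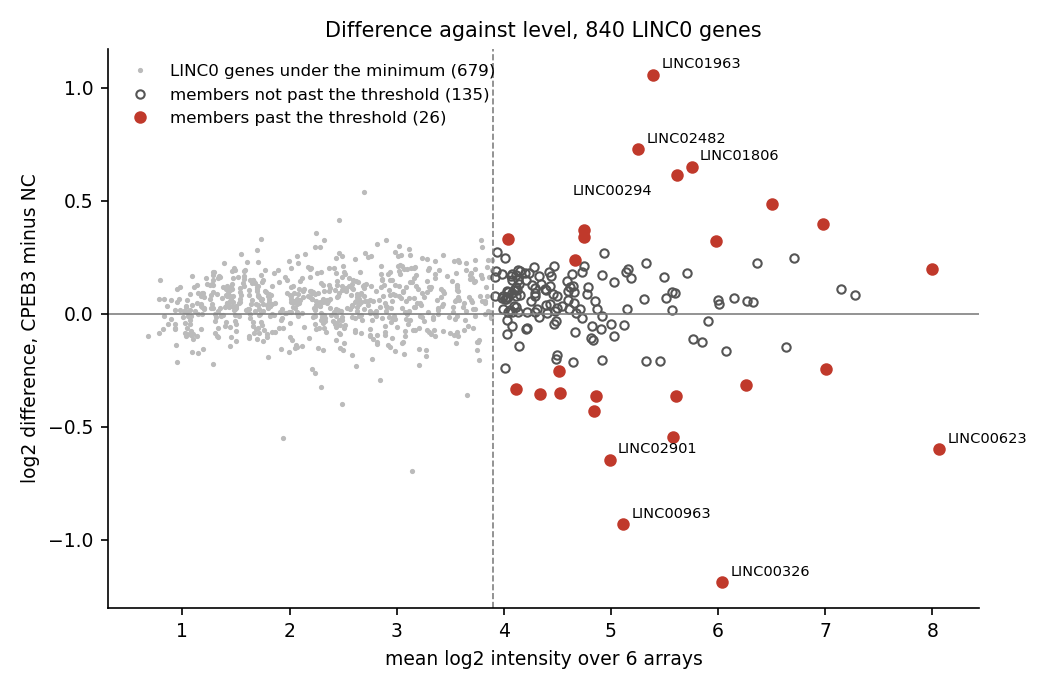
Log2 difference, arrays labelled CPEB3 minus arrays labelled NC (y axis), against mean log2 intensity over the 6 arrays (x axis) for the 840 LINC0 genes, with a dashed line at the minimum of 3.9. Filled points are the 26 members past the threshold, from -1.19 (LINC00326) to 1.06 (LINC01963).

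The 135 genes that did not pass had differences from -0.24 (LINC02405) to 0.28 (LINC00905) at their leading probe sets. For 132 of them the 95% interval of the difference lay within 0.5 on the log2 scale on either side of 0, and the exceptions were LINC02035, LINC03019 and LINC00905, whose intervals reached up to 0.56. Unadjusted limma p-values were under 0.05 in 24 of the 135, and groups did not overlap in 25, 18 of them higher in the arrays labelled CPEB3. The 135 genes had 89 other probe sets, of which 5 passed, in 5 genes (limma, Benjamini-Hochberg adjusted p under 0.05 over all probe sets). These were in LINC00537 (0.33), LINC00957 (0.29), LINC02987 (0.27), LINC01128 (0.24) and LINC00205 (-0.34). Of the 161 genes 116 (72%) had a positive difference, with a median of 0.07, while all genes at that level had 51.1% positive and a median of 0.01. Set beside protein-coding genes of like level, 82.7% of members against 61.2% were positive from 3.9 to 4.5, 61.8% against 51.3% from 4.5 to 5.5, and 64.5% against 48.2% at 5.5 and above. These shares were not tested against each other.

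Among the 6 brightest members, LINC00513 and LINC00467 did not pass. LINC00513, described as a positive regulator of type I interferon signalling, was at 7.33, 7.31 and 7.31 against 7.14, 7.28 and 7.29, without overlap. Its difference was 0.08 (95% interval -0.06 to 0.22; limma, Benjamini-Hochberg adjusted p = 0.4). LINC00467 was at 7.20 ± 0.07 against 7.09 ± 0.06 (SD, n = 3 each), and its interval was -0.04 to 0.25 (adjusted p = 0.267 in the same limma fit). Several members studied in colorectal and other carcinomas, chosen here after their values were seen, also had narrow intervals. LINC00460 differed by 0.05 (-0.09 to 0.20), LINC01234 by 0.07 (-0.08 to 0.22), LINC00662 by -0.03 (-0.16 to 0.09) and LINC00857 by -0.12 (-0.31 to 0.08). For each of these 4 the groups overlapped.

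The share of genes past the threshold rose with level. Of the 75 members with a mean from 3.9 to 4.5, 3 passed (4%), compared with 13.8% of the 1390 protein-coding genes in that range. From 4.5 to 5.5 the share was 20% (11 of 55) against 24.5%. At 5.5 and above it was 38.7% (12 of 31), the same as the 38.7% of 8365 protein-coding genes. The median standard error of a member was 0.08 in both lower ranges and 0.07 in the highest. Below the minimum, 18 of the 679 other LINC0 genes passed (2.65%), 15 higher and 3 lower. In 8 members the mean of 1 group lay under 3.9, and LINC02874 was the 1 of them that passed.

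**Figure D3:**
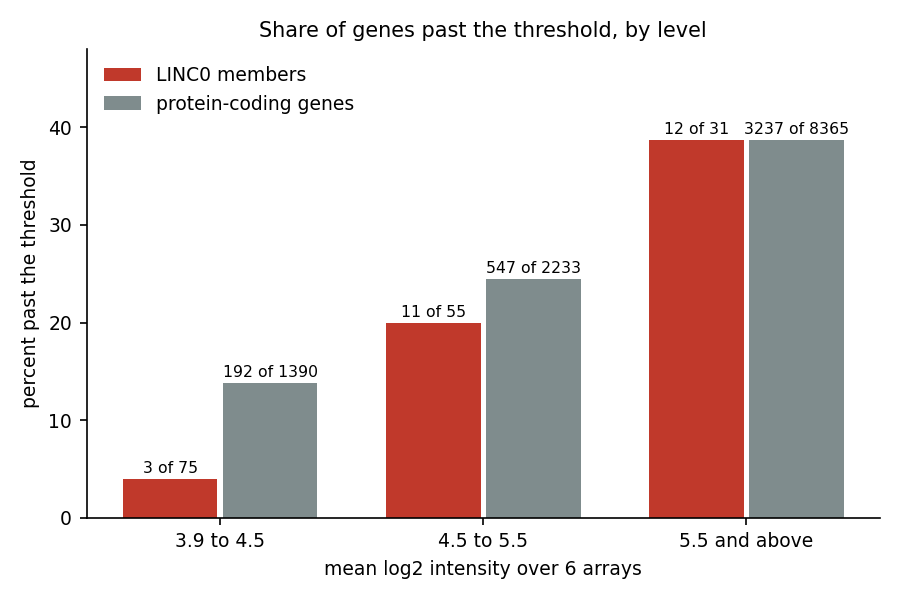
Percent of genes past the threshold (y axis) by mean log2 intensity over the 6 arrays (x axis), for the 161 long intergenic noncoding RNAs and for protein-coding genes, with counts above the bars. The shares are 4% against 13.8% in the lowest range and 38.7% for both in the highest.

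Because some of these RNAs act on genes beside them, each member was set beside the nearest measured protein-coding gene in the RefSeq gene table (GRCh38.p14), where 159 of the 161 genes were found, all as long noncoding RNAs under the same symbol. The nearest coding gene passed the threshold for 37 of the 159 (23.3%), and 26.1% of all protein-coding genes tested did. Across the 159 pairs the differences of RNA and neighbour had a Spearman correlation of 0.16 and a Pearson correlation of 0.15, given as a description, since pairs come from the same 6 arrays and some share a neighbour. Of the 25 members past the threshold that have a place in that table, 3 had a nearest coding gene that also passed, each in the same direction.

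LINC01003 fell beside KMT2C, a histone H3 lysine 4 methyltransferase, which was at 5.44 ± 0.09 against 6.48 ± 0.09 (SD, n = 3 each), a 2.05-fold fall (limma, Benjamini-Hochberg adjusted p = 1.71e-05). The only probe set of LINC01003 can match several transcripts, so other transcripts with like sequence may add to its value. LINC02874 rose beside KRT80, an epithelial keratin that rose 1.28-fold from 4.35 to 4.70 (limma, Benjamini-Hochberg adjusted p = 0.0349, or up to 0.108 when NC replicate 1, NC replicate 3 or CPEB3 replicate 3 was left out). LINC01770 rose beside VWA1, a matrix protein that rose by 0.39 but differed by 0.10, not past the threshold, when its probe sets were averaged. The call of LINC01770 was itself narrow (limma, Benjamini-Hochberg adjusted p = 0.0498). Its other probe set, at 3.87 in both groups, differed by 0.00062, and the mean of both by 0.12 (adjusted p = 0.236), and the call held in 8 of 17 alternative settings. LINC00592 lies with LINC02874 between KRT80 and KRT7. LINC00592 fell by 0.37 while LINC02874 rose by 0.33, and KRT7 differed by -0.01.

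Counting the nearest measured coding gene on each side, 10 of 50 flanking places were held by a gene that passed, 5 with the direction of the RNA and 5 with the opposite one. METTL2B, a tRNA methyltransferase, rose by 0.50 beside LINC01000, which fell. TIPARP, an ADP-ribosyltransferase, fell by 0.25 beside LINC00886, which rose, and lost its call without CPEB3 replicate 2, CPEB3 replicate 3 or NC replicate 2. VCPKMT, a protein methyltransferase, fell by 0.30 beside LINC01588, which also fell (averaging its probe sets gave -0.17 and centring on spike-ins -0.12, neither of which passed), and FGF9, a fibroblast growth factor, rose by 0.56 on the side of LINC00621. IER5L (0.35) beside LINC00963 and TCF20 (-0.26) beside LINC01315 had other probe sets with the opposite sign. For the members that changed most, LINC00326 and LINC01963, the genes on either side showed RPS12 0.03, EYA4 0.04, XRCC5 0.14 and MARCHF4 0.13, and none of these 4 passed (limma, Benjamini-Hochberg adjusted p from 0.14 to 0.86).

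**Figure D4:**
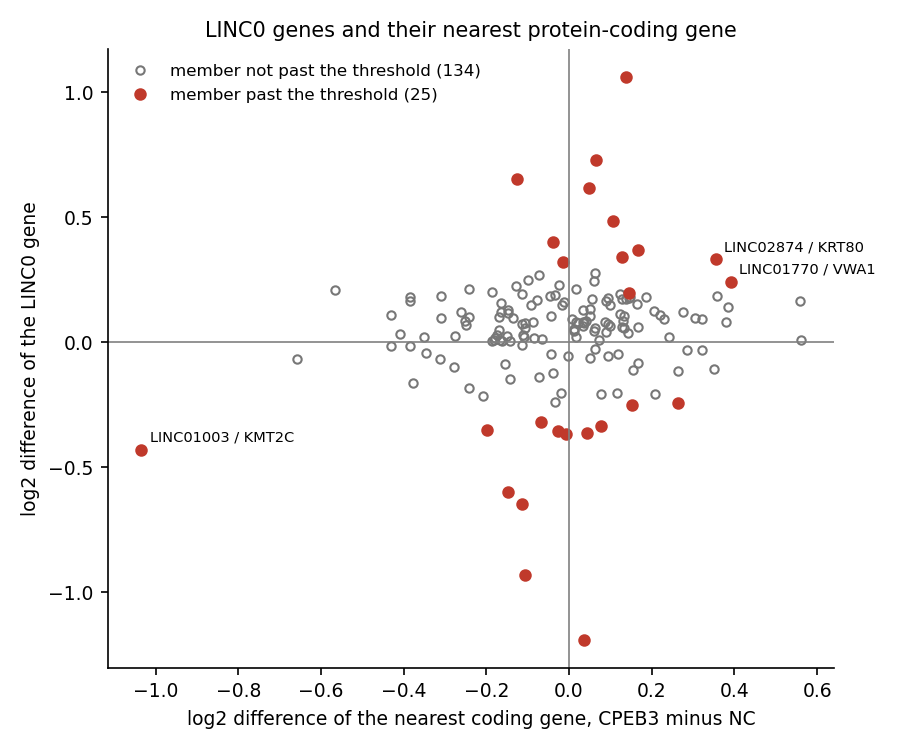
Log2 difference of each of 159 long intergenic noncoding RNAs (y axis) against that of its nearest measured protein-coding gene (x axis), arrays labelled CPEB3 minus arrays labelled NC. Filled points are the 25 members past the threshold, and the 3 whose neighbour also passed are named.

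Start sites that face away from each other can share a promoter. With starts on opposite strands within 2000 bases, 7 members were paired with a coding gene. Of these 7 coding genes 4 passed, and 26.1% of all protein-coding genes tested did. LINC01770 and VWA1 both rose at their leading probe sets, while LINC02482 rose and MRFAP1L2 did not pass. LINC00205 was at -0.16 and did not pass at its leading probe set (limma, Benjamini-Hochberg adjusted p = 0.0902), another of its probe sets fell by 0.34, and its partner POFUT2, a protein O-fucosyltransferase, fell by 0.38. LINC01134 (0.07) and LINC00857 (-0.12) did not pass beside C1orf174, which fell by 0.25, and the calcium-binding annexin gene ANXA11, which rose by 0.26. Neither gene passed in the pairs of LINC00685 (0.05) with GTPBP6 (-0.17) and LINC01547 (-0.01) with SLX9 (-0.11).

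RefSeq promoters of 300 bases (250 before and 50 after a start) were found for 123 members, 21 of them past the threshold. They were searched on both strands for 5 short motifs, each the letters bound by a family of inducible transcription factors. The interferon-stimulated response element, GAAA followed after 2 bases of any kind by GAAA, occurred in the promoters of 0 of 11 genes that rose and 1 of 10 that fell, printed above. It was also found for 3 of 102 that did not pass and in 4.38% of all 27305 genes with a RefSeq promoter, measured or not, the base of each last share below. TGANTCA, bound by AP-1, was found for 1 of 11 and 3 of 10 (LINC00339, LINC00963 and LINC02901), 8 of 102 and 9.37%. ACGTG, the core bound by hypoxia-inducible factors, was found for 4 of 11, 4 of 10, 29 of 102 and 24.9%. The EGR motif GCGNGGGCG was found for 1 of 11, 1 of 10, 7 of 102 and 11.2%, and the NF-kB motif, GGG and TTCC with 3 bases of any kind between them, for 1 of 11, 0 of 10, 5 of 102 and 7.83%. Median GC content was 61% for promoters of genes that rose, 59.2% for those that fell, 57.7% for those that did not pass and 58.3% over the same 27305 genes. These counts describe letters in the windows and were not tested.

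Other long noncoding RNAs at the same minimum level gave a wider view. Among all genes at that level 32.2% passed, with a median difference of 0.01. Antisense RNAs, named for the gene they overlap, rose in 34 of 253 and fell in 23 (22.5% past the threshold, median difference 0.07). FOXP4-AS1 rose 1.98-fold and ZBED5-AS1 1.87-fold, while EPB41L4A-AS1, a host of a small nucleolar RNA, fell 1.75-fold. Divergent or intronic transcripts rose in 15 of 77 and fell in 3 (23.4%, median 0.10), with FAM111A-DT lower by 0.62 and PPP1R3B-DT higher by 0.41 on the log2 scale. Host genes of small nucleolar RNAs and microRNAs rose in 3 of 21 and fell in 7 (47.6%). MIR200CHG, which carries epithelial miR-200 family members, rose 2.08-fold, and MIR210HG, the host of a hypoxia-induced microRNA, fell 1.91-fold. Of 70 long noncoding RNAs listed by name, 30 reached the minimum level, of which 6 rose and 6 fell (40%), among them DANCR, which rose by 1.36 from 8.12 to 9.47, and DLEU2, which fell by 0.79. The mean of the 7 probe sets of DLEU2 differed by -0.19 and did not pass. With spike-in centring the counts higher and lower became 132 and 9 for antisense RNAs, 46 and 1 for divergent or intronic transcripts, 7 and 6 for host genes and 12 and 4 for the RNAs listed by name. Median levels were 4.74 for antisense RNAs, 4.70 for divergent or intronic transcripts, 5.54 for host genes and 5.96 for the RNAs listed by name. All genes at the same minimum had a median of 6.30. The share past the threshold rose with level, so 32.2% is not the share of genes of like level. These lists share members, and whether their shares differ from that of the LINC0 genes was not tested.

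Genes that end or degrade noncoding transcripts passed the threshold at a share near that of other bright genes, which was 38.7% for protein-coding genes at 5.5 and above. Of 29 measured members of the RNA exosome and its adaptors, 10 fell and 1 rose (37.9% past the threshold, median difference -0.12 against 0.01 for all genes at 3.9 or more). EXOSC8, a core exosome subunit, fell 1.53-fold (log2 difference -0.61, SE 0.06). ZCCHC8 (1.47-fold) and RBM7 (1.46-fold), both subunits of the nuclear exosome targeting complex, fell too. Of the 15 Integrator genes, whose complex cleaves nascent noncoding transcripts, 6 fell and 0 rose (40% past the threshold, median -0.18), with INTS2 1.28-fold and INTS8 1.27-fold lower. With each array centred on its spike-ins these counts became 4 lower and 6 higher for the exosome list and 0 lower and 3 higher for Integrator, so their direction depends on the scaling.

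The number of LINC0 genes in each direction depends on it as well. Spike-in probe sets averaged -0.18 (log2, arrays labelled CPEB3 minus NC), and centring on them shifted every gene up by 0.18. It gave 84 members higher and 6 lower. The 6 that stayed lower were LINC00326, LINC00963, LINC02901, LINC00623, LINC00973 and LINC01003, and all 12 rises were kept.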

How the data were processed

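RNA from 3 arrays labelled CPEB3 and 3 labelled NC was measured on Affymetrix HG-U133 Plus 2.0 arrays. The values are linear-scale intensity values that the authors deposited after RMA, per the submitters' processing notes; RMA makes the arrays' distributions alike, which can hide a shift common to most genes. Log2 was taken of the deposited intensity, and the fit used limma 3.58.1 (lmFit and eBayes, R 4.3.3) with group as the only term, two-sided, adjusted by Benjamini-Hochberg over 19775 genes, with a threshold of 0.05. It has 4 residual degrees of freedom. Of 54675 probe sets, 41091 carry 1 gene symbol in the platform annotation and 1801 carry several and were not used; control probe sets were left out. Arrays have no read depth, and their number limits the precision. The script was tested on simulated data.

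The genes named are all members past the threshold, the 6 brightest, 3 on either side of the minimum level, the nearest measured coding genes on each side, and up to 4 from each other list; exceptions are stated. Members and lists were chosen with earlier results of these data known. The genome build of the probe annotation is not given in the sources used here, so RefSeq (GRCh38.p14) served for neighbours by name and for promoters.

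Alternatives covered the probe set per gene, scaling, variance model, pseudocount, filter, threshold, replicate block and single arrays.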

Additional observations from a re-analysis of the deposited data

How the results depend on the processing

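Against 12 members higher and 14 lower, centring on 18 spike-in probe sets, which raised all genes by 0.18, gave 84 and 6 (all genes 7766 and 1038, against 2146 and 2470). No minimum level gave 27 higher and 17 lower. Without _s_at and _x_at probe sets 12 members were higher and 9 lower (all genes 1544 and 1714). A threshold of 0.01 gave 9 higher and 8 lower (all genes 1083 higher and 1520 lower). Members with a mean of at least 5 gave 8 higher and 7 lower. Leaving out 1 array gave 9 to 20 members higher, the 20 without NC replicate 1, and 10 to 13 lower (all genes 1512 to 1942 and 1861 to 2412). Deviations of same-numbered arrays correlated at 0.00, -0.02 and 0.12, and those of unlike-numbered arrays at -0.11 to 0.12. The labels state no pairing, and these values cannot decide it. With replicate number as a block 14 members were higher and 15 lower (all genes 1946 and 2316). Of the 26 genes, 13 passed at 0.05 in every setting run on them (LINC01003, 1 of these, did not pass at 0.01) and 18 whichever array was left out. With the mean of a gene's probe sets, or the probe set of largest variance, signs turned for CPEB3 (-0.50 and -1.44), IER5L (-0.046 and -0.44), TCF20 (0.0055 and 0.27), and in the latter setting LINC02874 (-9.47e-05). RAB30-DT turned likewise (-0.00455 and -0.41). The cause of these changes was not tested. Dim probe sets limit what can be measured for most members.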
